A study of Mus musculus with 12 samples.

Results

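Expression of 10 genes of the YAP-TEAD pathway was followed in mouse yolk sacs lacking Hypb, now named Setd2. The genes were the coactivators Yap1 and Wwtr1 (the TAZ gene), their DNA-binding partner Tead1, and the known target genes Ankrd1, Ccn1, Ccn2, Amotl2, Ajuba, Lats2 and Axl. They are 10 of 18193 genes measured, and their 24 probe sets are 24 of 45037 on the array. Apart from their known place in the pathway, the genes were chosen by their values in the E10.5 knockout, where Ankrd1, Ccn1 and Ccn2 were known to be high. Knockout against wild type at E10.5 is therefore given for these genes as a description with no test, and so is every comparison that uses the knockout arrays of that stage.

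YAP1 and WWTR1 carry no DNA-binding domain of their own and switch on genes in the nucleus by binding TEAD factors. The Hippo kinases, among them LATS1 and LATS2, phosphorylate both coactivators and so keep them in the cytoplasm, where angiomotin proteins can also hold them. Spread or stretched cells and those with actin stress fibres hold more YAP in the nucleus, and in mice that lack Yap1 the yolk sac fails to form its vessels properly. CCN1 and CCN2 are secreted matrix proteins, ANKRD1 is an ankyrin repeat protein best known from heart muscle, and AMOTL2 and LATS2 are targets that act back on the pathway as inhibitors.

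Yolk sacs, the membranes that feed the early embryo and make its first blood and vessels, were profiled on Affymetrix whole-genome expression arrays. The groups were E10.5 knockout, E10.5 wild type, E9.0 knockout and E9.0 wild type, with 3 arrays each and 12 in all, and each array held RNA pooled from 4 yolk sacs of a single genotype. All groups had the strain 129Sv/C57BL/6; which part of Hypb was removed is not stated in the sources used here, and the submitters' design sets a stage at which the knockout looks nearly normal beside one shortly before it dies. Values are log2 expression made by the authors with RMA, for which no depth exists; precision is set by having 3 arrays a group.

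Knockout arrays lay below wild type arrays for Setd2 without exception, and its mean fell by 0.83 on the log2 scale at E10.5 and by 1.29 at E9.0. Both differences passed limma's test (adjusted p = 0.00294 and 0.00207). Replicate 3 of both genotypes stood apart from the other arrays of its stage in the array's spiked control probes, at E10.5 in dap and at E9.0 in BioC, so values within replicates 1 and 2 are given beside a number of the results. Serum and lipid carrier genes marked the tissue as yolk sac: the 10 visceral endoderm markers averaged between 12.5 and 12.8 on every array, on a scale whose highest value was 14.49. The arrays read whole yolk sacs, in which fewer cells of a type and less RNA per cell cannot be told apart.

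TEAD factors recognise the core motif GGAATG, and the 250 bases before the transcription start were searched for it on both strands, where the reverse strand reads CATTCC. RefSeq promoter entries on GRCm38.p6 were matched for 8 of the 10 genes, all but Ccn2 and Tead1, and 7 of these 8 held the motif. The same windows held it in 14.4% of 27025 genes, and 5 of the 8 held the longer GGAATGT, which was found in 3.75% of genes. GGAATGT contains GGAATG, so these matches overlap. The first 3 sequences shown belong to genes that were higher on every E10.5 knockout array, and that of Ajuba, a scaffold protein that inhibits LATS kinases, belongs to a gene with as many matches and no such difference. Capitals mark GGAATG or CATTCC, and each sequence runs 5′ to 3′ along its gene. They lie at chr19:36119845-36120094 (Ankrd1, minus strand), chr3:145649986-145650235 (Ccn1, minus strand), chr9:102717554-102717803 (Amotl2, plus strand) and chr14:54577662-54577911 (Ajuba, minus strand).
Ankrd1: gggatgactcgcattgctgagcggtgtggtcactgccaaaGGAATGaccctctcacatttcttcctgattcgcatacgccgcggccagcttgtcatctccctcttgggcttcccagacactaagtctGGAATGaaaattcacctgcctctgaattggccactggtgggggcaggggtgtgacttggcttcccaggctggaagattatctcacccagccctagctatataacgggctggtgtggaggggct
Ccn1: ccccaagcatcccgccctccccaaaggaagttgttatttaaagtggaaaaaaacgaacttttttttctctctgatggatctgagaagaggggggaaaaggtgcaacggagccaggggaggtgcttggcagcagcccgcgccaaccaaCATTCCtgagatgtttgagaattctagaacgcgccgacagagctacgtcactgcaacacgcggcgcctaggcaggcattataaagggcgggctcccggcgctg
Amotl2: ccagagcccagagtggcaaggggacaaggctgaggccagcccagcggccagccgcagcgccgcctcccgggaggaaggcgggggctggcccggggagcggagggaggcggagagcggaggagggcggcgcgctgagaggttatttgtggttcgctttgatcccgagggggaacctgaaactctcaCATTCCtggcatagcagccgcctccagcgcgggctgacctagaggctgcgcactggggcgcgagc
Ajuba: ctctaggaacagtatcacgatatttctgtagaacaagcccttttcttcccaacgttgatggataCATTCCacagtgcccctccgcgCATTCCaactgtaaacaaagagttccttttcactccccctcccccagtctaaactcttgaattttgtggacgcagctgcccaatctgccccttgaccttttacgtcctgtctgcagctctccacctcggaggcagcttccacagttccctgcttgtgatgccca
Ankrd1 held 2 matches, beginning 210 and 123 bases before its start, and Ajuba also held 2, beginning 186 and 164 bases before its start. Having 2 or more matches was seen in 1.18% of genes. Ccn1 held 1 match from 103 to 98 bases before its start, and Amotl2 held 1 from 65 to 60. Axl, Yap1 and Wwtr1 held 1 match each per window, and neither of the 2 windows of Lats2 held any. Starts are those of the promoter entries, which can lie within a gene. The Amotl2 window lies inside the annotated span of its gene, and the Axl, Yap1 and Lats2 windows and 1 Wwtr1 window overlap theirs. A match describes these letters only.

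At E10.5 Ankrd1, Ccn2, Ccn1 and Amotl2 were at least 2.06-fold higher in the knockout than in the wild type. Ajuba and the brightest probe sets of Lats2 and Yap1 lay close to the wild type. Ankrd1 had log2 values of 8.54, 7.72 and 8.98 on the knockout arrays, against 5.12, 5.37 and 5.08 on the wild type arrays. The groups did not overlap, and the lowest knockout array lay over 2 log2 units above the highest wild type array. The mean difference was 3.22 (SE 0.27), which is 9.34-fold, and a second Ankrd1 probe set gave 3.16.

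Ccn2, which encodes a matrix-associated growth regulator also called CTGF, read 9.50, 9.48 and 10.02 in the knockout and 7.66, 7.63 and 7.38 in the wild type. Again the groups were apart, by 2.11 on average (SE 0.26; 4.32-fold). Ccn1, the closely related gene also called CYR61, read 8.62, 8.47 and 9.35 in the knockout and 7.39, 7.33 and 7.29 in the wild type. Its difference was 1.48 (SE 0.18; 2.78-fold), and the other 3 Ccn1 probe sets gave 1.52, 1.95 and 2.17. Replicate 3 of the knockout was the highest array for Ankrd1, Ccn2 and 2 of the 4 Ccn1 probe sets, the brightest among them, and the lowest knockout array for the other 2 Ccn1 probe sets. Within replicates 1 and 2 the differences were 2.885 for Ankrd1, 1.845 for Ccn2 and 1.185 for Ccn1, with no overlap either.

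Amotl2, an angiomotin family member that holds YAP outside the nucleus, read 9.82, 9.38 and 10.01 in the knockout and 8.48, 8.83 and 8.78 in the wild type. The difference was 1.04 (SE 0.15; 2.06-fold), and every knockout array was above every wild type array. Amotl2 lies on chromosome 9 within 10 Mb of Setd2 and is the only one of the 10 genes to do so. Strain-derived differences near the targeted gene were not tested.

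**Figure D1:**
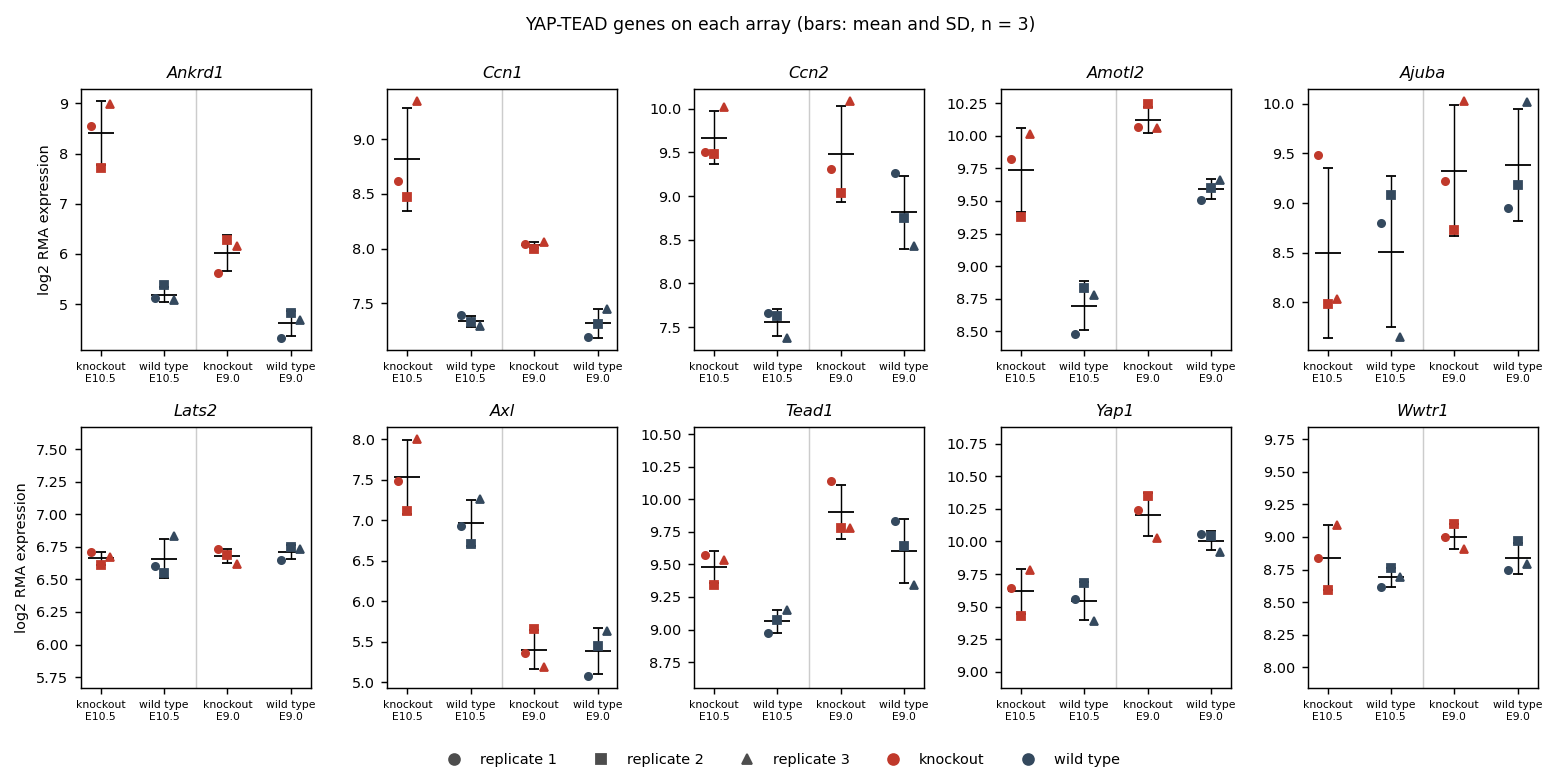
Log2 RMA expression (vertical axis, with its own range in each panel) of the 10 YAP-TEAD genes, each by its brightest probe set, on every array of the 4 groups. Symbols are single arrays by replicate number, and the bars are mean and SD (n = 3). Ankrd1, Ccn1, Ccn2 and Amotl2 show knockout arrays above all wild type arrays at E10.5, and Lats2 lies between 6.55 and 6.83 on all 12 arrays.

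By their brightest probe sets the remaining targets overlapped between the genotypes. Axl, a receptor tyrosine kinase of the TAM family, read 7.49, 7.11 and 8.01 in the knockout and 6.93, 6.71 and 7.27 in the wild type. These ranges overlapped, with a mean difference of 0.57 (SE 0.22). Ajuba ranged from 7.98 to 9.48 in the knockout and from 7.65 to 9.08 in the wild type, and the means differed by -0.013 (SE 0.47). Its spread was the widest of the 10 genes in every group. Lats2, the kinase that phosphorylates YAP, read 6.71, 6.61 and 6.67 in the knockout and 6.60, 6.55 and 6.83 in the wild type. Its difference was 0.0033 (SE 0.094), and the other 5 Lats2 probe sets lay between -0.17 and 0.39. The probe set at 0.39 had every knockout array above every wild type array.

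For the coactivators Yap1 and Wwtr1 the size of the difference at E10.5 depended on the probe set, while the Tead1 probe sets gave similar values. Tead1 read 9.57, 9.34 and 9.53 in the knockout and 8.97, 9.07 and 9.15 in the wild type, groups that did not overlap and differed by 0.42 (SE 0.14). A second Tead1 probe set gave 0.51, also without overlap. Yap1 read 9.64, 9.43 and 9.78 in the knockout and 9.56, 9.68 and 9.39 in the wild type, which overlapped. The difference was 0.073 (SE 0.12), with -0.085 in replicates 1 and 2 against 0.39 in replicate 3, and a second Yap1 probe set gave 0.44. Wwtr1 read 8.84, 8.59 and 9.09 in the knockout and 8.62, 8.76 and 8.69 in the wild type, also with overlap, and the difference was 0.15 (SE 0.12). Its other 2 probe sets disagreed with this: they gave 0.64 and 0.72, with every knockout array above every wild type array.

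By the brightest probe sets, 5 of the 10 genes had no overlap with the knockout higher, against 11.5% of all genes, and the median difference was 0.49 against -0.013 for all genes. Since the set was drawn from this comparison, these counts describe it only. Over all genes 4.12% were called higher and 3.16% lower.

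**Figure D2:**
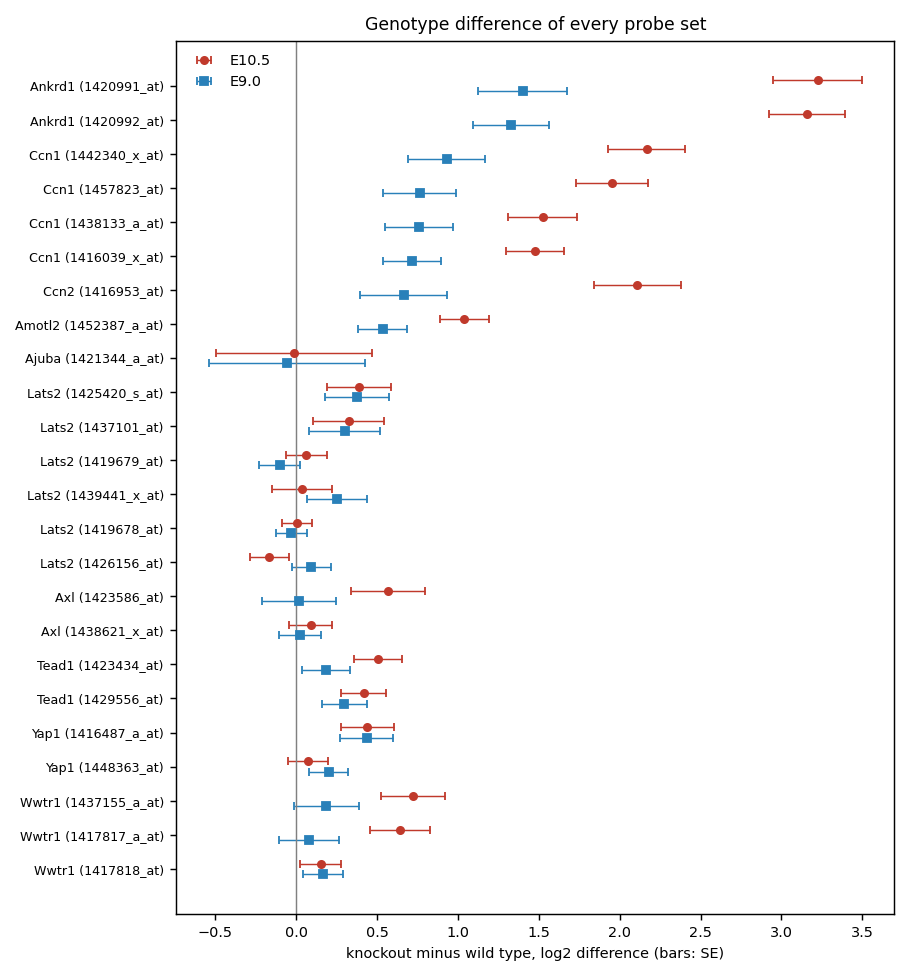
Knockout minus wild type difference (horizontal axis, log2; bars are SE) for each of the 24 probe sets, with E10.5 as red circles and E9.0 as blue squares. The Ankrd1, Ccn1, Ccn2 and Amotl2 probe sets lie right of 0 at both stages and further right at E10.5. The 6 Lats2 probe sets lie between -0.17 and 0.39 at both stages.

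At E9.0, the stage at which the knockout looks nearly normal, Ankrd1 was the single gene of the 10 whose difference passed the test. It read 5.61, 6.28 and 6.15 in the knockout and 4.33, 4.82 and 4.69 in the wild type. The groups did not overlap. All 6 values lay below the mean of the median gene, 6.52, and RMA compresses dim probe sets. Ankrd1 was 1.40 higher (SE 0.27; 2.64-fold; adjusted p = 0.0291 by limma), with a difference of 1.37 in replicates 1 and 2 alone and of 1.46 in replicate 3. The call rested on all 6 arrays: leaving out any 1 of them kept the difference between 1.26 and 1.60 but moved the adjusted p to between 0.0583 and 0.108. In a fit of all probe sets the adjusted p was 0.0534 for this probe set and 0.0374 for the other Ankrd1 probe set, which was 1.33 higher, where 0.175% of all probe sets were called higher. That 1 of 10 genes compares with 0.55% of all genes called higher at this stage.

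Ccn1 read 8.04, 8.0 and 8.06 in the E9.0 knockout and 7.19, 7.31 and 7.45 in the E9.0 wild type. The 3 knockout arrays were nearly equal and all lay above the wild type, by 0.72 on average (SE 0.18), and the adjusted p was 0.0769. The other 3 Ccn1 probe sets gave 0.76, 0.76 and 0.93, each without overlap and each short of the threshold. Ccn1 passed the test under 5 of the alternative settings tried, with adjusted p between 0.0157 and 0.0372, and its adjusted p without any 1 array was 0.109 to 0.240.

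Amotl2 was likewise higher on each knockout array, with 10.07, 10.24 and 10.06 in the knockout and 9.51, 9.60 and 9.66 in the wild type. The difference of 0.53 (SE 0.15) had an adjusted p of 0.117 by limma. Ccn2 read 9.31, 9.03 and 10.09 in the knockout and 9.26, 8.75 and 8.43 in the wild type, so the groups overlapped. Its difference was 0.66 (SE 0.26; adjusted p = 0.311 by limma) and came mostly from replicate 3, where it was 1.66 against 0.165 in replicates 1 and 2.

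The other 6 genes differed by between -0.057 and 0.30 at E9.0, all with overlapping arrays and adjusted p of 0.425 or more. Tead1 was the highest of these at 0.30 (SE 0.14), followed by Yap1 at 0.20 (SE 0.12) and Wwtr1 at 0.17 (SE 0.12). Axl gave 0.017, with 0.245 in replicates 1 and 2 and -0.44 in replicate 3, Lats2 -0.03 and Ajuba -0.057. A second Yap1 probe set was higher on each knockout array, by 0.44 (adjusted p = 0.376 over all probe sets). In all, 3 of the 10 genes had knockout arrays wholly above the wild type arrays, against 8.56% of all genes, and the median difference was 0.25 against -0.0067.

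In wild type yolk sacs Ccn2, Amotl2, Tead1 and Yap1 declined with age and Axl increased. This comparison did not choose the genes, but it shares the E10.5 wild type arrays with the one that did. Choosing genes as high in knockout against wild type at E10.5 favours low values on those wild type arrays, and so a fall with age. The p-values below do not allow for this, which concerns Ccn2 above all. Between the stages 4 of the 10 genes fell and 1 rose, beside 8.86% of all genes called lower and 13.4% called higher. Centring each array on its median turned the balance over all genes, with 1749 higher and 2464 lower in place of 2432 and 1612, but the same 5 of the 10 genes were called.

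Ccn2 read 7.66, 7.63 and 7.38 in the E10.5 wild type and 9.26, 8.75 and 8.43 in the E9.0 wild type. It fell by 1.26 (SE 0.26; adjusted p = 0.00442), with all older arrays below all younger ones. Amotl2 read 8.48, 8.83 and 8.78 at E10.5 and 9.51, 9.60 and 9.66 at E9.0, and it fell by 0.89 (SE 0.15; adjusted p = 0.00112). Both calls held without any 1 array.

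Tead1 fell by 0.54 (SE 0.14; adjusted p = 0.0137), with 8.97, 9.07 and 9.15 at E10.5 and 9.83, 9.64 and 9.34 at E9.0. Its call was lost without E9.0 wild type replicate 1 (adjusted p = 0.0657) or E10.5 wild type replicate 1 (0.0538), and the change was -0.19 in replicate 3 against -0.715 in replicates 1 and 2. Yap1 fell by 0.46 (SE 0.12; adjusted p = 0.0149), with 9.56, 9.68 and 9.39 at E10.5 and 10.06, 10.04 and 9.92 at E9.0. That call was lost without E9.0 wild type replicate 1, E9.0 wild type replicate 2 or E10.5 wild type replicate 3, with adjusted p between 0.0520 and 0.0676, and the second Yap1 probe set gave -0.18 (adjusted p = 0.553). Wwtr1 gave -0.15 by its brightest probe set (SE 0.12; adjusted p = 0.453). Its other 2 probe sets both fell, by 1.13 and 1.17, with adjusted p of 0.00203 and 0.00246 over all probe sets, of which 6.62% were called lower, so the probe sets of Wwtr1 disagree on its change with age.

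Axl rose, with 6.93, 6.71 and 7.27 in the E10.5 wild type and 5.08, 5.45 and 5.63 in the E9.0 wild type. The change was 1.58 (SE 0.22; 3.00-fold; adjusted p = 0.000392) and held without any 1 array. Its other probe set gave 0.043, at levels between 2.38 and 2.81 that lie near the bottom of the scale. Ankrd1 was 0.58 higher at the older stage (SE 0.27; adjusted p = 0.153), without overlap of the arrays. Ccn1 gave 0.02, Lats2 -0.05 and Ajuba -0.87 (SE 0.47; adjusted p = 0.224). The Ajuba value came mostly from replicate 3, where it was -2.37, against -0.125 in replicates 1 and 2, and it lay between -1.16 and -0.44 without any 1 array.

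In the knockout, the same interval looked different for Ankrd1, Ccn1 and Ccn2, given here as values only. Ankrd1 was 2.40 higher at E10.5 than at E9.0 and Ccn1 0.78 higher, against 0.58 and 0.02 in the wild type. Ccn2 was 0.19 higher in the knockout, where it fell by 1.26 in the wild type. Its genotype difference at E10.5 came with a lower wild type level at the older stage: the knockout averaged 9.67 at E10.5 and 9.48 at E9.0, and the wild type 7.56 and 8.81. Amotl2 was 0.39 lower at E10.5 in the knockout, against 0.89 lower in the wild type. Axl was 2.13 higher, Tead1 0.42 lower and Yap1 0.59 lower, each with the sign seen in the wild type. The genotype effect at E10.5 exceeded that at E9.0 by 1.82 for Ankrd1, 1.45 for Ccn2, 0.76 for Ccn1 and 0.51 for Amotl2.

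**Figure D3:**
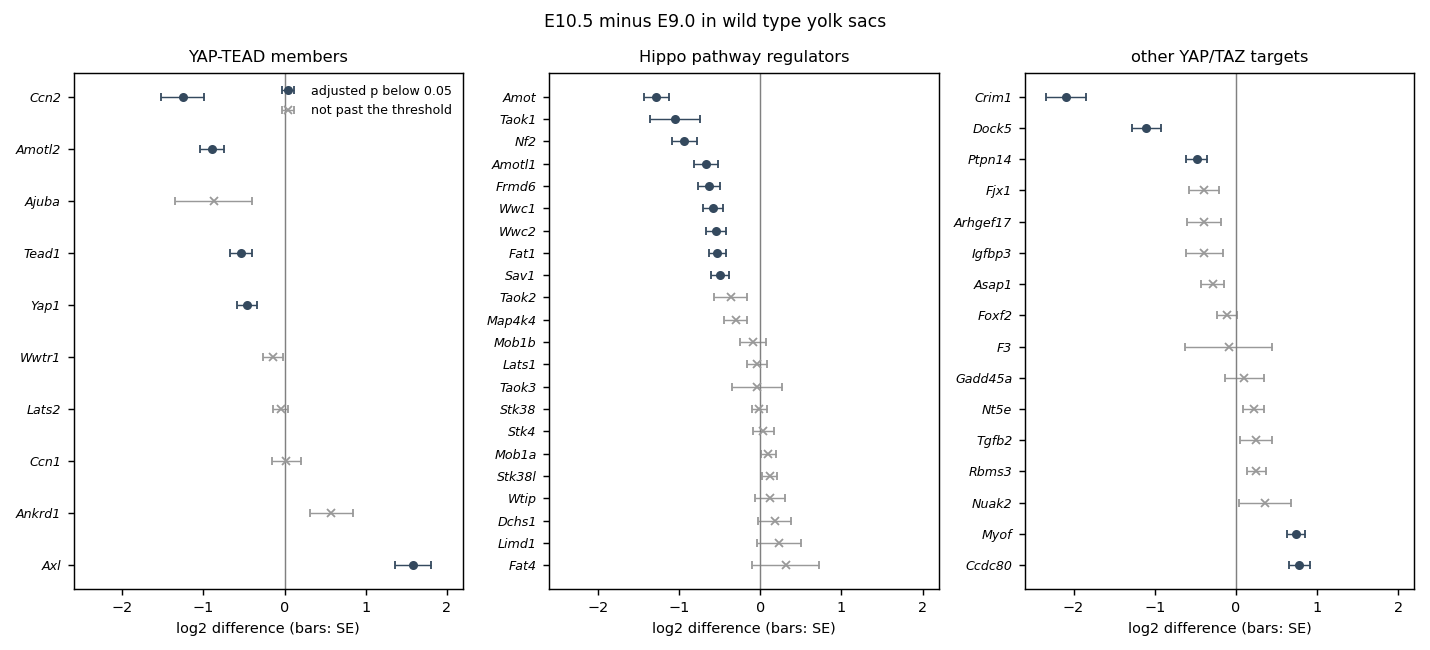
E10.5 minus E9.0 in wild type yolk sacs (horizontal axis, log2; bars are SE) for the 10 YAP-TEAD genes, 22 Hippo pathway regulators and 16 other YAP/TAZ targets. Dark circles mark genes with an adjusted p below 0.05 and grey crosses the rest. All 9 regulators that passed lie left of 0, beside 8.86% of all genes called lower.

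Genes of the same pathway outside the 10 were then counted from lists of upstream regulators, TEAD partners, other targets and genes of serum response factor (SRF). Among 16 other YAP/TAZ targets, taken from a signature of human cells, 4 rose in the E10.5 knockout and 0 fell, beside 4.12% and 3.16% of all genes, and 8 had an unadjusted p under 0.05, beside 20.2% of all genes. Igfbp3, a secreted binding protein of insulin-like growth factors, read 9.45, 8.72 and 9.72 in the knockout and 7.64, 7.28 and 7.83 in the wild type, 1.71 higher (SE 0.22; adjusted p = 0.000717). Crim1, a membrane protein that binds growth factors, read 7.57, 7.58 and 6.72 in the knockout and 5.45, 5.96 and 5.85 in the wild type, 1.54 higher (SE 0.25; adjusted p = 0.00291), by 1.87 in replicates 1 and 2 and by 0.87 in replicate 3. The membrane repair gene Myof (0.62, adjusted p = 0.00667) and the matrix gene Ccdc80 (0.65, adjusted p = 0.00867) rose as well. None of these 4 calls was lost without any 1 array, but with the mean of its probe sets Myof was 0.29 higher (adjusted p = 0.0610). Dock5 went the other way without being called, with 5.14, 5.29 and 5.56 in the knockout and 6.03, 5.66 and 5.65 in the wild type. The list median was 0.34, against -0.013 for all genes. At E9.0 limma called 0 of the 16, with 2 at an unadjusted p under 0.05, beside 11.8% of all genes, and a median of 0.23.

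Of 22 measured regulators that act above YAP, 2 rose and 1 fell at E10.5, beside 4.12% and 3.16% of all genes. An unadjusted p under 0.05 was seen in 5 of the 22, a share near the 20.2% of all genes, and the median was -0.02. Frmd6, a FERM domain protein that activates the kinases, was 0.62 higher (SE 0.13; adjusted p = 0.0132). The atypical cadherin Fat1 was 0.42 higher (SE 0.11; adjusted p = 0.0319), and this call held in 1 of 6 fits that left out an array. Limd1, an Ajuba relative that inhibits LATS kinases, read 8.76, 7.67 and 9.0 in the knockout and 9.75, 9.78 and 9.74 in the wild type, 1.28 lower (SE 0.27; adjusted p = 0.0135), with -1.55 in replicates 1 and 2 and -0.74 in replicate 3. The Limd1 call was lost without wild type replicate 2 (adjusted p = 0.0510), and that of Frmd6 without knockout replicate 1 (0.0614). At E9.0 limma called 0 of the 22, with 2 at an unadjusted p under 0.05, a share below the 11.8% of all genes. Fat1 was nevertheless higher on every E9.0 knockout array too, with 10.44, 10.54 and 10.33 against 9.94, 10.04 and 10.01 in the wild type. Limd1 was lower on every E9.0 knockout array, with 8.49, 8.90 and 8.32 against 9.32, 9.47 and 9.77 in the wild type. It lies on chromosome 9, as Setd2 does, though not within 10 Mb of it. Strain-derived differences were not tested for Limd1 either. The 7 other TEAD factors and Vestigial-like cofactors had 0 calls by limma and 0 at an unadjusted p under 0.05 at either stage.

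With age, in contrast, 9 of the 22 regulators fell in the wild type and 0 rose, beside 8.86% and 13.4% of all genes. Amot, which holds YAP at junctions and along actin, lay between 10.72 and 11 at E10.5 and between 11.77 and 12.37 at E9.0, a fall of 1.28 (SE 0.15; adjusted p = 0.000127). Nf2, which encodes the kinase activator merlin, fell by 0.94 (SE 0.15; adjusted p = 0.00102). Frmd6 fell by 0.63, Wwc1 by 0.58, Wwc2 by 0.55 and Fat1 by 0.53, and all of these kept their calls without any 1 array. Among the rest of the 9, the calls of Amotl1 and Taok1 depended on the probe set. With the mean of probe sets they gave -0.32 and -0.20 (adjusted p = 0.0850 and 0.284 by limma). The Taok1 call also held in only 3 of 6 fits without an array. The list median was -0.20, against 0.03 for all genes. Tead2 fell by 0.69 (adjusted p = 0.0467), a call that held in 1 of 6 fits without an array. Of the other targets Crim1 fell by 2.09, Dock5 by 1.10 and Ptpn14 by 0.48, while Myof rose by 0.74 and Ccdc80 by 0.78, although Ccdc80 was 0.28 higher with the mean of its probe sets (adjusted p = 0.0986). The Ptpn14 call was lost without E9.0 wild type replicate 1 or 2.

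Genes of SRF and the immediate early response, many of which actin dynamics also control, gave 7 of 18 higher and 0 lower in the E10.5 knockout. Over all genes 4.12% were called higher and 3.16% lower. Jun, the AP-1 subunit, read 7.0, 6.77 and 7.30 in the knockout and 6.07, 6.14 and 6.14 in the wild type, 0.91 higher (SE 0.13; adjusted p = 0.00139). Ier3 was 1.05 higher (adjusted p = 0.000959), the zinc finger factor Egr1 1.07 (adjusted p = 0.0114), the actin-binding tropomyosin Tpm1 0.82 (adjusted p = 0.00538), the phosphatase Dusp1 0.61 (adjusted p = 0.0253) and the stress-induced factor Atf3 0.57 (adjusted p = 0.00418). The Dusp1 call was lost without wild type replicate 2 or 3, and within replicates 1 and 2 Dusp1 was 0.37 higher (adjusted p = 0.0696) and Egr1 0.77 higher (adjusted p = 0.0849). Myc was not called and went the other way, with -0.785 within replicates 1 and 2 and -0.23 in replicate 3. The list median was 0.11. At E9.0 1 of 18 was called, Atf3, beside 0.55% of all genes called higher. Atf3 read 7.84, 7.90 and 7.94 in the knockout and 7.24, 7.42 and 7.43 in the wild type. It was 0.53 higher (SE 0.10; adjusted p = 0.0266) and lost its call in 5 of 6 fits without an array. With age in the wild type Ier3 and Fos rose, by 0.57 and 0.75, and Vcl, Myc and Flna fell, by 0.60, 0.73 and 0.38; the Fos call was lost without each of the 6 arrays in turn, that of Flna without 5 of them and that of Ier3 without E9.0 replicate 1.

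**Figure D4:**
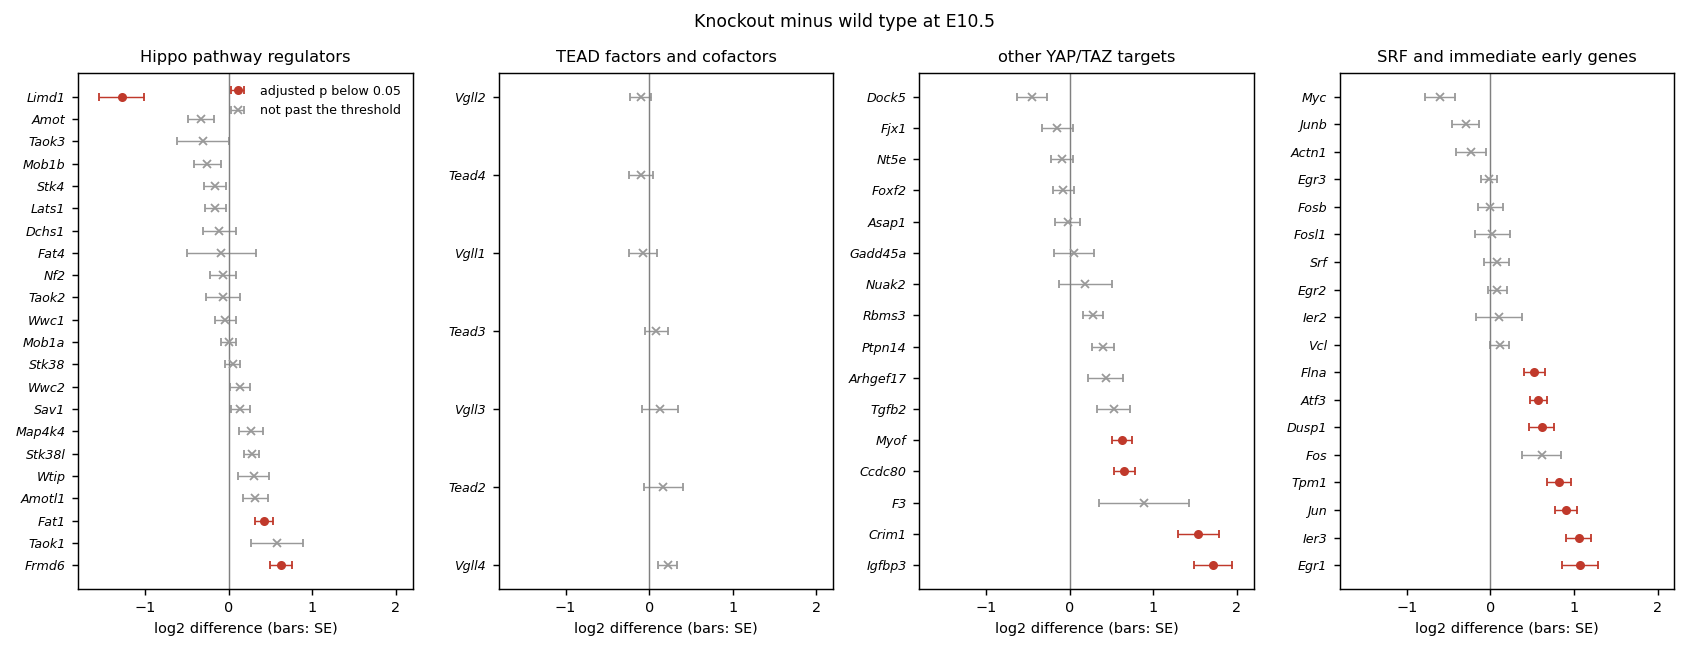
Knockout minus wild type at E10.5 (horizontal axis, log2; bars are SE) for Hippo pathway regulators, TEAD factors and cofactors, other YAP/TAZ targets and SRF and immediate early genes, sorted within each panel. Red circles passed an adjusted p of 0.05 and grey crosses did not. Of the targets 4 of 16 passed and of the SRF and immediate early genes 7 of 18, all of them higher, beside 4.12% of all genes.

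Some markers of other cell types also differed from the wild type in the E10.5 knockout. Ankrd1 is abundant in heart muscle. Of 18 heart muscle markers 7 were called higher in that knockout and 0 lower, beside 4.12% and 3.16% of all genes. The other 11 were not called, and the list median was 0.53. The summed linear signal of the 18 ranged from 1829 to 3514 over the E10.5 knockout arrays, against 1053 to 1150 over the E10.5 wild type arrays. By their E10.5 knockout means 13 of the 18 lay below the median gene, and such a sum gives the brighter markers more weight. Myl7, an atrial myosin light chain, read 9.33, 7.52 and 8.07 in the knockout and 5.24, 4.93 and 5.12 in the wild type, 3.21 higher (SE 0.56; adjusted p = 0.00477). Tnnt2 was 1.92 higher (adjusted p = 0.00728), Myl4 2.11 (adjusted p = 0.00631) and Nppb 0.90 (adjusted p = 0.000625), and cardiac actin Actc1 was 1.60 higher without passing (adjusted p = 0.0880). The heart factor Nkx2-5 did not follow: it read 4.96, 5.03 and 4.92 in the knockout and 5.05, 4.99 and 5.0 in the wild type. The calls of Nppb, Myl7, Myl4 and Tnnt2 held without any 1 array, whereas those of Tnni1, Tnnc1 and Smpx were lost without each of the 3 wild type arrays in turn. Knockout replicate 2 was the lowest knockout array for Ankrd1, Myl7, Tnnt2, Myl4 and Actc1, and the highest was replicate 1 for these heart genes and replicate 3 for Ankrd1.

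At E9.0 the heart markers passed no test. The summed signal of the 18 markers ranged from 937 to 1176 in the knockout and from 889 to 1575 in the wild type, limma called 0 of them, with 5 at an unadjusted p under 0.05 (11.8% of all genes), and the list median was -0.093. Myl7 read 5.37, 5.68 and 6.15 in the knockout and 5.32, 6.95 and 8.05 in the wild type. Tnnt2 lay lower on every knockout array, by 1.03 (adjusted p = 0.235). Tnnc1 lay higher on every knockout array, by 0.49 (adjusted p = 0.108), as Ankrd1 did. What part heart muscle RNA had in the E10.5 values of Ankrd1 was not tested.

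**Figure D5:**
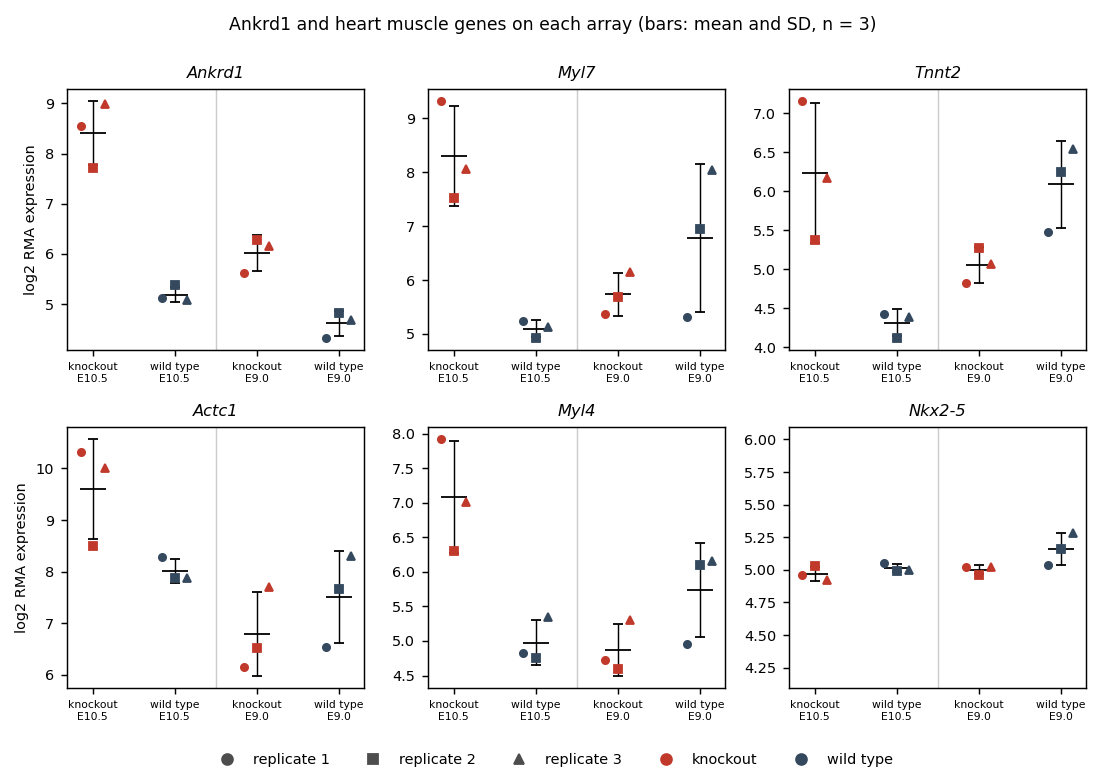
Log2 RMA expression (vertical axis, with its own range in each panel) of Ankrd1 and 5 heart muscle genes on every array of the 4 groups; symbols are replicate numbers and bars are mean and SD (n = 3). At E10.5 Ankrd1, Myl7, Tnnt2, Actc1 and Myl4 are higher on all knockout arrays, at E9.0 Ankrd1 alone of these 6 is, and Nkx2-5 lies between 4.92 and 5.28 throughout.

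Some contractile and mesothelial markers were higher as well. The counts below stand beside 4.12% of all genes called higher at E10.5 and 3.16% called lower. Of 8 smooth muscle markers 2 rose at E10.5, Tagln by 1.02 (adjusted p = 0.0148) and Acta2 by 0.76 (adjusted p = 0.00786), and 0 fell. Their summed linear signal was 7459 to 11403 in the knockout and 4786 to 5885 in the wild type, of which Acta2 and Tagln made up at least 91.2% on each array. The other 6 summed to 435 to 680 in the knockout and 398 to 451 in the wild type, and Myh11 differed by -0.16, Lmod1 by 0.04 and Des by 0.22. Of 10 mesothelium markers 5 rose and 0 fell: Tbx18 (1.64), Krt19 (1.11), Wt1 (1.03), Lrrn4 (0.61) and Bnc1 (0.57), whose call was lost without each of the 6 arrays in turn. Upk1b was lower on every knockout array, by 0.26 without passing (adjusted p = 0.480), and Upk3b gave -0.06. The summed signals were 16452 to 19726 in the knockout and 13818 to 14696 in the wild type, but the epithelial keratins Krt8 and Krt18, neither of them called, made up at least 84.6% of these on each array. The other 8 summed to 2139 to 3033 in the knockout and 1816 to 1882 in the wild type. Among endothelium markers 2 of 10 rose, Pecam1 by 0.86 and Robo4 by 0.54, and each of these calls held in 1 of 6 fits without an array. On the other side 2 of 9 primitive erythroid markers fell, Epb42 by 1.25 and Rhd by 0.78. Of 10 visceral endoderm markers 1, Cubn, fell by 0.36. The erythroid list median was -0.48 and the endoderm list median -0.15, against -0.013 for all genes. Summed erythroid signals were 32088 to 41822 in the knockout and 42381 to 42785 in the wild type. For the endoderm list the sums were 93989 to 98225 in the knockout and 102139 to 107015 in the wild type. The calls of Wt1, Lrrn4, Epb42, Rhd and Cubn held in at most 2 of 6 fits without an array, and that of Tagln was lost without wild type replicate 2 (adjusted p = 0.0614). Limma called 0 markers of these 5 lists at E9.0, where 3 smooth muscle, 3 mesothelium and 1 endothelium marker had an unadjusted p under 0.05 (11.8% of all genes), and 0 of the other 2 lists did. The part of these cell types in the YAP-TEAD values was not tested.

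Across the 12 arrays Ankrd1 and Ccn1 followed each other closely (Pearson r = 0.96, Spearman rho = 0.90), and with group means removed r was 0.71. Ccn2 tracked them less, with r of 0.60 against Ankrd1 and 0.73 against Ccn1, and 0.16 and 0.29 with group means removed. These points fall into 4 groups, so the pooled values mainly restate the group means. Among 8913 genes with a mean above that of the median gene, the profile most like Ankrd1 was that of Cnn3, a calponin that binds actin (r = 0.96), followed by Pmp22, Hs6st2, Prom1 and Ptgs2 (all r = 0.95). For Ccn1 it was Parva, which links integrins to actin (r = 0.96), then Tmsb10, Pdlim4, Ly6e and Cnn3 (each r = 0.93). For Ccn2 it was the homeobox gene Irx3 (r = 0.93), then Dhx16, Ei24, Stmn1 and Bsdc1 (r between 0.91 and 0.92).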

How the data were processed

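Log2 expression values of 12 arrays were deposited by the authors, who made them with RMA per the submitters' processing notes; its version is not given in the sources used here. RMA corrects background, brings all arrays to 1 distribution and summarises each probe set, so a change shared by all transcripts is removed and dim probe sets are compressed. Array medians lay between 5.27 and 5.34.

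Probe sets with 1 symbol in the platform annotation (34945 of 45101; 932 had several and 9160 no entry) were used, and each gene was read by its brightest, giving 18193 genes. Group means were estimated from the 12 arrays together by limma 3.58.1 under R 4.3.3 (8 residual and 4.56 prior degrees of freedom). Adjusted p-values are two-sided Benjamini-Hochberg values over all genes of a comparison, with a threshold of 0.05. The 24 probe sets of the 10 genes were fitted again among all 45037 that are no controls. Folds are 2 raised to the log2 difference. The fit was tested on simulated data.

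The members and lists were chosen with earlier results of these data known. Every member was named. From each list the called genes were named, or those with the smallest p: 6 where more than 6 pathway genes, and 4 where more than 4 markers, were called. Myl7, Tnnt2, Actc1 and Nkx2-5 were always named, and 5 genes by likeness to each of Ankrd1, Ccn1 and Ccn2. Amotl1, Taok1, Tnnc1, Tnni1, Smpx, Bnc1, Upk1b, Upk3b, Krt8, Krt18, Myh11, Lmod1 and Des were named after their values were seen. The split of 2 marker sums by their brightest pair was also made then.

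Replicate 3 was treated as a batch from its control probes: BioC minus BioB was -0.10 (knockout) and -0.023 (wild type) at E9.0, against 1.46 to 1.52 on the other E9.0 arrays, and dap 3' minus 5' was 1.87 and 1.85 at E10.5, against 1.23 to 1.44. The labels name no batch. The labels do not say that same-numbered pools were paired. P-values measure the spread between pools. Alternatives were other probe set summaries, scalings, filters, priors and blocks, fewer arrays, and leaving out each array.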

Additional observations from a re-analysis of the deposited data

Results flagged for a closer look

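The genotype effect on Tnnt2, a cardiac troponin listed among the heart muscle markers, differed between the stages. It was 1.92 higher in the knockout at E10.5 and 1.03 lower in the knockout at E9.0, a difference of 2.95 between the effects (SE 0.51; adjusted p = 0.0436 by limma, an interaction tested over all genes). Every E10.5 knockout array lay above, and every E9.0 knockout array below, the wild type arrays of its stage.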

How the results depend on the processing

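The YAP-TEAD results, the pathway list counts and the list genes called by genotype or with age in the wild type were recomputed with other processing. The difference between the stages' effects on Tnnt2 was not recomputed. At E9.0 the count of 1 called YAP-TEAD gene became 2, with Ccn1 joining Ankrd1, under the mean of all probe sets, median centring, a fit of only the arrays compared and a block for replicate 3. It was 0 among genes above the median gene, where Ankrd1 itself was filtered out, and 0 to 0 without any 1 array. Within replicates 1 and 2 it was 1, but the gene was Ccn1 and not Ankrd1. In wild type with age the count of 5 ranged from 3 to 5 without any 1 array and from 4 to 6 elsewhere. The mean of all probe sets lost Yap1 there (-0.32, adjusted p = 0.110) and added Wwtr1 (-0.81, adjusted p = 0.000987). The median difference between the stages' effects (0.31) was 0.082 among genes above the median gene and 0.27 to 0.49 without any 1 array.

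In the pathway lists the single call at E9.0 became 2 with median centring and with the replicate 3 block, and 0 with only the arrays compared and within replicates 1 and 2. It was 0 to 1 without any 1 array; at E10.5 the 14 calls ranged from 10 to 15 and in wild type with age the 20 calls from 15 to 18. Median centring moved the median of all genes from E9.0 to E10.5 in the knockout to -0.1, against 0.03.

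Changes of sign were seen in small differences that passed no test. Ccn1 with age in the wild type (0.02) became -0.22 with the mean of probe sets, -0.077 with centring, -0.015 with quantile normalisation, and -0.043 and -0.0067 without replicate 1 of E9.0 or E10.5, in a range of -0.043 to 0.087 without any 1 array. At E9.0 Ajuba became 0.24 or 0.26 without knockout replicate 2 or wild type replicate 3 (range -0.41 to 0.26 without any 1 array), Lats2 0.15 with the mean of probe sets and 0.01 within replicates 1 and 2, and Axl -0.11 or -0.14 without knockout replicate 2 or wild type replicate 1 (range -0.14 to 0.14). Lats2 with age in the wild type became 0.005 without E10.5 replicate 2.

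Same-numbered knockout and wild type arrays deviated together with r of 0.034, 0.23 and 0.24 at E9.0 and 0.26, 0.067 and 0.40 at E10.5. These were not all over 0.1, so the numbers were not taken to pair the pools, although replicate 3 of both genotypes also shared its control probe values. With a replicate block the called YAP-TEAD genes stayed at 1 at E9.0 and 5 with age, and the list calls were 1 at E9.0 and 15 at E10.5. The number of arrays limits all of these values.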
